A study of Mus musculus with 12 samples.

Results

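Ileum and colon are told apart in part by the transcription factors their epithelium keeps switched on. Here 9 genes grouped as regional identity transcription factors were followed through RNA-seq libraries of mouse intestinal mucosa. The 9 genes were Cdx1, Cdx2, Gata4, Gata6, Onecut2, Hnf4a, Hnf4g, Nr5a2 and Foxd2. They were found in the table by matching its Ensembl identifiers to these symbols in GENCODE M21, which gave 9 of 53715 genes. The 12 libraries were made from ileal or colonic mucosa of C57BL/6J mice, described by the study as males of 8 weeks, with 3 libraries for each tissue and genotype. Slc39a8-IEC KO mice carried Slc39a8-fl/fl with Villin-Cre, a transgene whose promoter drives Cre in intestinal epithelial cells, so that non-epithelial cells of the mucosa keep the gene. Controls carried Slc39a8-fl/fl without Cre by the labels, although the methods allow for wild-type and Villin-Cre animals among controls. The floxed allele and the strain were thus shared by all groups as labelled. The questions asked were how the level of each factor differed between colon and ileum, and whether it differed between genotypes.

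Cdx1 and Cdx2 are homeodomain proteins, relatives of Drosophila caudal, that specify and keep intestinal identity. Gata4 and Gata6 are zinc-finger proteins, and Gata4 is known for setting the proximal small intestine apart from the ileum. Hnf4a and Hnf4g are nuclear receptors that bind the same sites and drive genes of enterocyte differentiation, lipid handling and the brush border. Nr5a2, also called LRH-1, is a nuclear receptor of crypt cells and steroid production in the gut. Onecut2 is a cut-homeodomain protein of early duodenum and liver, and Foxd2 is a forkhead protein best known from mesenchyme.

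RefSeq promoter sequence on GRCm38.p6 was at hand for 4 of the 9 members. The stretches that follow, written 5′ to 3′ on the gene's own strand, are the bases upstream of the start for the member with the widest tissue difference (Foxd2), a member whose libraries overlapped between tissues (Cdx2) and both starts of the member with the highest level (Hnf4a). Capitals mark a match to a searched motif.
Foxd2, chr4:114908899-114909148, minus strand: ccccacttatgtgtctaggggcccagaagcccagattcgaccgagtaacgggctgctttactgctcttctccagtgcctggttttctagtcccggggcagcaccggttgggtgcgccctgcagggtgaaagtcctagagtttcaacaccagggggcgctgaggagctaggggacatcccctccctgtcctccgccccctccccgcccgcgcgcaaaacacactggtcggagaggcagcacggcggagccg
Cdx2, chr5:147307271-147307499, minus strand: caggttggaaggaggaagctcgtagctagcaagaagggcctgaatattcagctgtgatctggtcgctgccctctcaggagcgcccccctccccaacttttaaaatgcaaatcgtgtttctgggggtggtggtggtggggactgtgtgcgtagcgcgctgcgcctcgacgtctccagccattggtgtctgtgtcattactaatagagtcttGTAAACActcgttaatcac
Hnf4a, first start, chr2:163506607-163506807, plus strand: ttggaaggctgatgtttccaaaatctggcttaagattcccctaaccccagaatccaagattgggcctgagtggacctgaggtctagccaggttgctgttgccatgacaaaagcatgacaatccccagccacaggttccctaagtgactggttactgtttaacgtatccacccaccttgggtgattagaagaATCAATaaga
Hnf4a, second start, chr2:163546943-163547154, plus strand: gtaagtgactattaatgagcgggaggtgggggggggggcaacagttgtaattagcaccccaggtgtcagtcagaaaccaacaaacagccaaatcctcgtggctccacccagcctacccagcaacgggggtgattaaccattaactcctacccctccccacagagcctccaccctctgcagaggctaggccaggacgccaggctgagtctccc

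The 300-base window at the Foxd2 start, from 250 bases before to 50 after it, was rich in G and C. It held 67.7% GC and 26 CpG pairs, against medians of 52.7% and 7 over 32851 promoter windows, and 87.4% of all windows had a lower GC share. Words for the binding sites of the factor families themselves were searched on both strands. The Cdx word was TTTATG, held by 11.9% of all windows. The Gata word was AGATAA, held by 11.2%, and the Onecut word was ATCAAT, held by 7.54%. The Hnf4 word was CAAAGTCCA, held by 0.475%, and the Nr5a2 word was CAAGGTCA, held by 1.56%. The Fox word was TGTTTAC, held by 3.65%. The Cdx2 window held the Fox word at position -40 on the opposite strand. The first Hnf4a window held the Onecut word at position -59 and the Gata word at position -52, which runs past the end of the printed stretch. The first Nr5a2 window held the Gata word at positions -217 and -200, while the Foxd2 window and the second Hnf4a window held none of these letters. A match is a description of letters and not of binding.

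Positions are those of GRCm38 (mm10) in GENCODE M21. Cdx1 lies at chr18:61018862-61036199 on the minus strand, Gata6 at chr18:11052064-11085635 on the plus strand and Onecut2 at chr18:64340020-64400987 on the plus strand. Cdx2 lies at chr5:147300805-147307270 and Gata4 at chr14:63198922-63271692, both on the minus strand. Hnf4a lies at chr2:163506808-163572910 and Hnf4g at chr3:3508030-3658052, both on the plus strand. Nr5a2 lies at chr1:136842571-136960448 and Foxd2, a gene of 1 exon, at chr4:114906282-114908873, both on the minus strand. All 9 are protein-coding, and the counts of a gene cover its exons. Of every stretch of 75 bases of their transcripts, none was shared with another gene for 8 members, and 0.296% were shared with the antisense gene 1010001N08Rik for Gata6.

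Library depth ranged from 16749138 to 27903083 expected counts. Slc39a8, the targeted gene, had 126, 94 and 155 counts in ileal controls, 73, 67 and 59 in ileal knockouts, 407, 427 and 426 in colonic controls and 156, 222 and 191 in colonic knockouts, so the groups did not overlap in either tissue. Its fitted log2 difference over both tissues was -1.13 (SE 0.17) with an adjusted p of 0.382 (edgeR quasi-likelihood test, Benjamini-Hochberg over 16558 genes). The tissue labels matched their markers, with 10171 to 16919 summed CPM (counts scaled to the TMM library size) of 4 ileal markers in ileum against 576 to 927 in colon. Ileum KO replicate 2 carried 2632 CPM of Car1, a carbonic anhydrase of colonic epithelium, against 3.40 to 144 in the other ileal libraries and 14884 to 27124 in colon. Ileum control replicate 3 and ileum KO replicate 1 held 31.6 and 18.4 summed CPM of 5 smooth muscle markers, against 1646 to 2373 in the other ileal libraries. Results that rest on these 3 libraries are given with and without them.

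The plot of the 9 factors by library shows the pattern in outline. Hnf4a, Hnf4g and Gata6 were higher in ileum, Foxd2 and Cdx1 were higher in colon, and Cdx2, Nr5a2, Gata4 and Onecut2 overlapped between tissues. Of the 9 members, 8 passed the filter on low counts and entered the fit over all genes, and Onecut2 did not pass. Foxd2 passed through its colonic libraries alone, so only a higher call was open to it. In control mice 2 members were called higher and 3 lower in colon at an adjusted p under 0.1, where 16.2% of all 16558 genes tested were called higher and 19.6% lower. In Slc39a8-IEC KO mice the same count was 2 higher and 3 lower, beside a background of 17.1% and 20.0%.

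**Figure D1:**
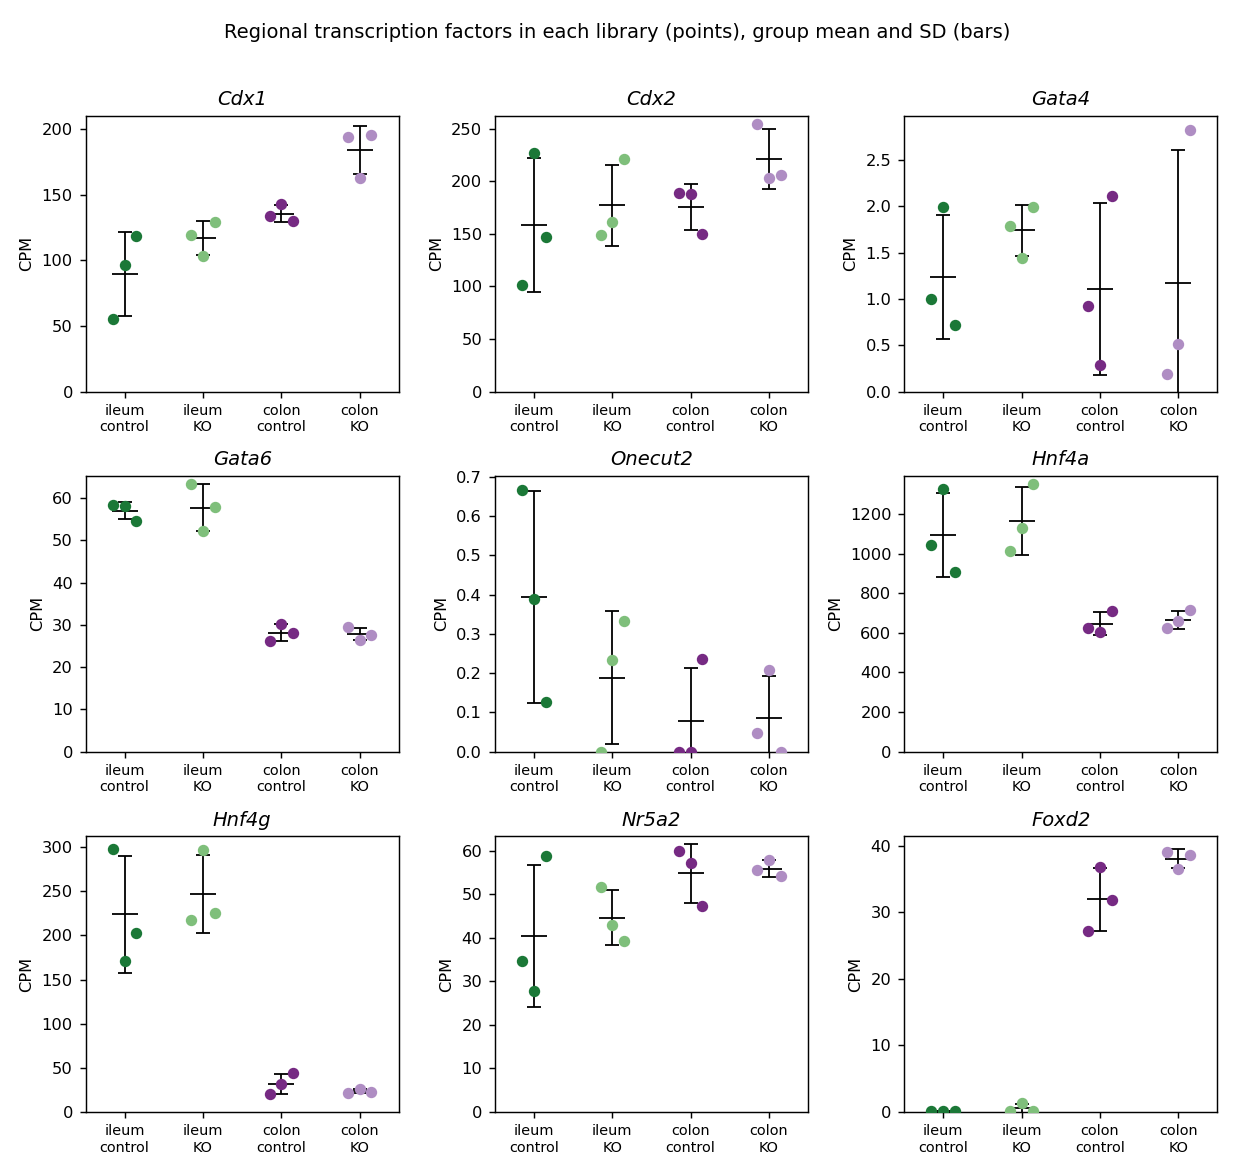
CPM (scaled counts, linear axes from 0, a separate scale in each panel) of the 9 transcription factors in the 12 libraries, with bars for the mean and SD of 3 libraries, cut at 0. Hnf4g falls from between 171 and 298 in ileum to between 20.3 and 43.4 in colon, and Foxd2 is near 0 in every ileal library.

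Foxd2 showed the widest difference. Its counts were 1, 3 and 1 in ileal controls and 2, 33 and 3 in ileal knockouts, against 531, 766 and 676 in colonic controls and 829, 703 and 929 in colonic knockouts. Every colonic library was far above every ileal one, and 33 counts in ileum KO replicate 2 stood apart from the other ileal libraries. Pooled over controls, the colonic level, scaled to library size, was 362 times the ileal one (95% interval 155 to 1117, counting error only), from 5 ileal counts in all. In knockouts the ratio was 63.6 (46.2 to 90.1), and 289 (123 to 889) without ileum KO replicate 2. That library held 7 of 10 colonic genes at over 1% of their colonic mean, with a median of 4.11%. Ileum KO replicates 1 and 3 held 1 and 2 of the 10, with medians of 0 and 0.450%. The 10 genes were chosen as under 0.5 CPM in all ileal controls and at least 5 CPM in colon. The ileal controls were thus low by that choice. Foxd2 itself meets both limits, so the 10 genes are not separate from it. Their part in the Foxd2 counts was not tested. The exact two-sided permutation test over all 12 libraries gave p = 0.005 for tissue, the smallest that 400 arrangements can give.

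Foxd2os, a long noncoding RNA named after the strand opposite to Foxd2, followed the same pattern. It had 0 to 34 counts in ileum and 499 to 809 in colon, and 34 counts were again in ileum KO replicate 2. Its pooled ratio was 181 (95.04 to 396) in controls and 47.7 (34.9 to 66.9) in knockouts, or 190 (87.0 to 517) without that library. The strand setting of the counting was not stated, and the spans of Foxd2 and Foxd2os do not overlap in the annotation.

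Hnf4g was the member that fell most from ileum to colon. It measured 298, 171 and 203 CPM in ileal controls and 218, 297 and 225 in ileal knockouts. In colon it measured 20.3, 31.5 and 43.4 CPM in controls and 21.6, 26.1 and 22.6 in knockouts, so that the lowest ileal library was well above the highest colonic one. The log2 difference was -2.82 (SE 0.29, adjusted p = 2.65e-05) in controls and -3.40 (SE 0.29, adjusted p = 8.63e-06) in knockouts by edgeR.

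Its paralog Hnf4a fell far less. Hnf4a measured 1044, 1323 and 909 CPM in ileal controls and 1012, 1128 and 1352 in ileal knockouts, against 626, 604 and 710 and then 624, 658 and 715 in colon. The tissues did not overlap, and the log2 differences were -0.76 (SE 0.17, adjusted p = 0.00703) and -0.81 (SE 0.17, adjusted p = 0.00487) by edgeR. Hnf4a was the most abundant member per kilobase of exon in both tissues.

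The balance of the pair within a library needs no scaling between libraries. Counts of Hnf4a were 3.499 to 7.75 times those of Hnf4g in ileum, with a median of 4.56, and 16.3 to 31.6 times in colon, with a median of 27.05. The log2 ratio was 2.35 higher in colon (exact permutation p = 0.005, adjusted over 3 ratios 0.015). Per kilobase the ratio was 1.91 to 4.22 in ileum and 8.91 to 17.2 in colon.

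**Figure D2:**
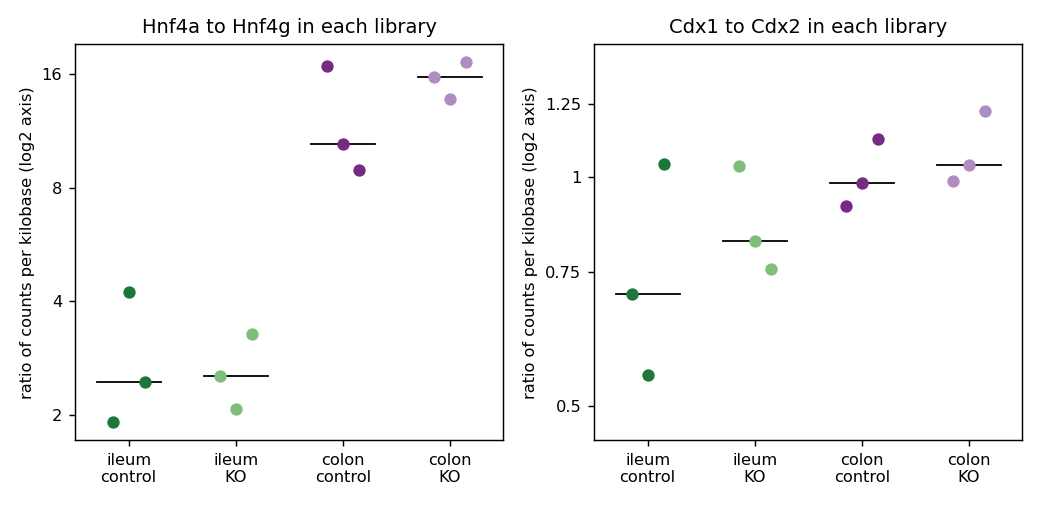
Ratio of counts per kilobase of Hnf4a to Hnf4g and of Cdx1 to Cdx2 in each library (points, log2 axes that do not start at 0), with the median of each group as a line. The Hnf4 ratio lies at 1.91 to 4.22 in ileum and 8.91 to 17.2 in colon with no overlap, while the Cdx ratio overlaps between tissues.

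Gata6 was lower in colon with little spread. It measured 58.4, 58.0 and 54.7 CPM in ileal controls and 63.3, 52.2 and 57.8 in ileal knockouts, against 26.1, 30.3 and 28.1 and then 29.5, 26.5 and 27.6 in colon. The tissues did not overlap, and the log2 differences were -1.02 (SE 0.11, adjusted p = 4.40e-05) and -1.05 (SE 0.11, adjusted p = 3.55e-05) by edgeR. Gata4, in contrast, was close to the floor in both tissues, with 15, 36 and 17 counts in ileal controls, 30, 37 and 42 in ileal knockouts, 18, 6 and 45 in colonic controls and 4, 10 and 68 in colonic knockouts. The colonic libraries spanned the whole ileal range. Its log2 differences of -0.15 (SE 0.86) and -0.54 (SE 0.85) were smaller than their errors, and without colon KO replicate 3 the knockout value was -2.29 with an adjusted p of 0.0729 by edgeR. The Gata4 to Gata6 ratio differed by 0.15 on the log2 scale (exact permutation p = 0.855, adjusted 0.855).

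The third Gata factor of the gut, Gata5, was not a member but fell the most of its family. It measured 81.4 to 132 CPM over the ileal libraries and 1.74 to 4.10 over the colonic ones. The pooled colonic level was 0.0303 of the ileal one in controls (0.0258 to 0.0353, counting error only) and 0.0251 in knockouts. Zfpm1, a cofactor that binds Gata proteins, fell by 1.47 (adjusted p = 0.0334) and 1.89 (adjusted p = 0.0105) on the log2 scale by edgeR. Of 15 relatives and partners of the members, 6 passed the filter. In controls 2 were higher and 2 lower in colon, where 16.2% and 19.6% of all genes were. In knockouts 1 was higher and 2 lower, where 17.1% and 20.0% of all genes were. Beside Foxd2os, Gata5 and Zfpm1, the 6 that passed held Foxd1, Zfpm2 and Foxd3. Foxd1 had 0 to 6 counts in ileum and 1 to 16 in colon, near the floor, with a call in controls alone (adjusted p = 0.0854 by edgeR). Foxd1 and Foxd2os passed the filter through colonic libraries alone, so only a higher call was open to them. Zfpm2 and Foxd3 had log2 differences of 0.88 (SE 0.93) and 1.16 (SE 1.04) in controls that were not called. Cdx4, Gata1, Gata2, Gata3, Onecut1, Onecut3, Nr5a1, Nr0b2 and Foxd4 did not pass, with at most 11 counts in any library.

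Cdx1 was higher in colon and varied more. It measured 55.2, 96.4 and 118 CPM in ileal controls and 119, 103 and 129 in ileal knockouts, against 134, 143 and 130 in colonic controls and 195, 163 and 195 in colonic knockouts. The 6 colonic libraries lay above the 6 ileal ones, though 130.4 in colon was next to 129.5 in ileum. The log2 difference was 0.59 (SE 0.22, adjusted p = 0.0683) in controls and 0.65 (SE 0.22, adjusted p = 0.0468) in knockouts by edgeR. The call in controls was lost without any one of ileum control replicates 1 and 2, colon control replicates 1, 2 and 3 or colon KO replicate 3 (adjusted p = 0.103 to 0.164), and without ileum control replicate 1 the difference was 0.34. The call in knockouts was lost without ileum KO replicate 2, colon KO replicate 1 or colon KO replicate 3 (adjusted p = 0.122 to 0.140), and without ileum KO replicate 2 and the 2 muscle-poor libraries together (0.51, adjusted p = 0.201). The exact permutation test gave p = 0.005 over both genotypes.

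Cdx2 was not called between tissues. It measured 102, 227 and 147 CPM in ileal controls and 149, 162 and 221 in ileal knockouts, against 189, 188 and 150 and then 254, 203 and 206 in colon, and the tissues overlapped. The log2 difference was 0.15 (SE 0.26, adjusted p = 0.702) in controls and 0.32 (SE 0.26, adjusted p = 0.383) in knockouts by edgeR. The exact permutation test over both genotypes gave p = 0.195, and 0.04 without ileum control replicate 2. Counts of Cdx1 were 0.425 to 0.807 times those of Cdx2 in ileum and 0.709 to 0.948 times in colon. The log2 ratio was 0.38 higher in colon (exact permutation p = 0.04, adjusted over 3 ratios 0.06), and missed the threshold of 0.1 without any one of ileum control replicate 2, ileum KO replicates 2 and 3 or colon control replicates 2 and 3.

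Nr5a2 measured 34.7, 27.7 and 58.9 CPM in ileal controls and 51.6, 42.9 and 39.3 in ileal knockouts, against 60.0, 57.1 and 47.3 and then 55.5, 58.0 and 54.2 in colon. The tissues overlapped, since ileum control replicate 3 and ileum KO replicate 1, the pair with few muscle transcripts, both lay above colon control replicate 3. The log2 differences were 0.44 (SE 0.23, adjusted p = 0.187) and 0.33 (SE 0.23, adjusted p = 0.319) by edgeR, and the exact permutation test over both genotypes gave p = 0.03. With 1 library left out that p ran from 0.005 to 0.1, and it was under 0.05 only without ileum control replicate 3 (0.005) or ileum KO replicate 1 (0.03). Without the 2 muscle-poor ileal libraries the log2 differences were 0.79 (adjusted p = 0.0015) and 0.45 (adjusted p = 0.0304) by edgeR, which passed the threshold. These 2 libraries held the highest Nr5a2 of their ileal groups, so leaving them out had to widen the difference. That alternative was also chosen after seeing the data. Onecut2 had 10, 7 and 3 counts in ileal controls, 0, 6 and 7 in ileal knockouts, 0, 0 and 5 in colonic controls and 1, 4 and 0 in colonic knockouts. At 0 to 10 counts a library its tissue difference was not detectable at this depth (exact permutation p = 0.08, and 0.025 without ileum KO replicate 1).

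Over both genotypes, 6 libraries against 6, Cdx1 and Foxd2 did not overlap with higher values in colon, where 13.4% of all genes did so, and Gata6, Hnf4a and Hnf4g did not overlap with lower values, where 14.7% did, or 28.2% in either direction. In controls the same 2 and 3 members did not overlap, beside 20.3% of all genes higher, 20.4% lower and 40.7% in either direction. In knockouts Nr5a2 joined the higher ones, beside 25.5% higher, 24.9% lower and 50.4% in either direction. The labels do not say whether ileum and colon came from the same mice, and the tests took the libraries as independent.

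Epithelial markers were lower in colon as well. All 6 of Epcam, Cdh1, Cldn7, Krt8, Krt18 and Krt19 were called lower in both genotypes, with median log2 differences of -0.85 and -0.84, and their summed level was 12800 to 15945 CPM in ileum and 7515 to 8594 in colon. Of all genes, 19.6% were called lower in controls and 20.0% in knockouts. In bulk mucosa, fewer cells of a type and less RNA per cell cannot be told apart. Per 1000 CPM of these markers, Hnf4a measured 67.1 to 96.0 in ileum and 72.6 to 90.8 in colon, which overlap throughout. Hnf4g measured 12.4 to 23.3 against 2.52 to 5.17. Cdx2 measured 7.93 to 16.5 against 17.8 to 29.5, and Nr5a2 2.01 to 4.34 against 5.62 to 7.71. The share of all genes separated on this scale was not counted, so these ranges are given as values only. With these markers as library size, 60.1% of all genes were called higher in colon in controls and 68.2% in knockouts.

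When the summed epithelial markers served as library size in edgeR, the median of all genes moved to 0.76 in controls and 0.90 in knockouts on the log2 scale, and 9946 genes were called higher and 1155 lower in controls, beside 2689 and 3251 with TMM scaling. On this scale Hnf4a differed by -0.01 (SE 0.16) in controls and 0.10 (SE 0.16) in knockouts, and was not called. Gata6 differed by -0.27 (adjusted p = 0.091) and -0.16 (adjusted p = 0.274), and Hnf4g by -2.09 and -2.50, with Hnf4g called in both. Cdx1 (1.35 and 1.54), Nr5a2 (1.19 and 1.21) and Cdx2 (0.91 and 1.22) were called higher in both genotypes, beside the medians of 0.76 and 0.90 over all genes. The direction turned with the scaling for Hnf4a in knockouts and for Gata4 in both genotypes (0.57 and 0.37), while those of Hnf4g, Cdx1, Cdx2, Nr5a2 and Gata6 did not. With library size only, the split in controls was 4156 higher and 2102 lower with a median of 0.24, and with upper-quartile factors 3373 and 2741 with a median of 0.12.

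**Figure D3:**
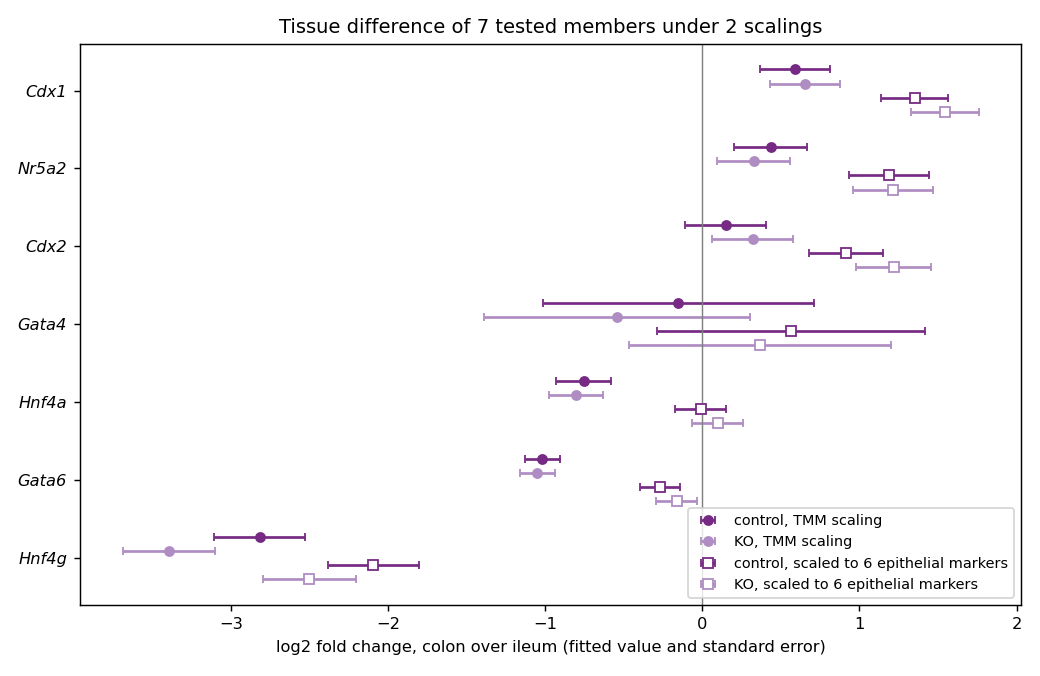
Fitted log2 fold change of colon over ileum (x axis) with its standard error for 7 tested members, in controls and knockouts, with TMM factors (filled circles) or the summed counts of 6 epithelial markers (open squares) as scale. Hnf4a moves from -0.76 to -0.01 in controls, and Hnf4g stays below -2 on both scales.

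Per kilobase of exon, the order of the factors changed between the tissues. In ileum it ran from Hnf4a at 234 ± 36.7 CPM per kilobase (SD, n = 6) through Hnf4g at 89.5 ± 19.7, Cdx2 at 74.2 ± 21.2 and Cdx1 at 59.2 ± 15.2 to Gata6 at 8.82 ± 0.578 and Nr5a2 at 7.21 ± 1.92. Gata4 at 0.382, Foxd2 at 0.117 and Onecut2 at 0.0179 closed it. Hnf4g overlapped with Cdx2, Cdx2 with Cdx1, Gata6 with Nr5a2, Gata4 with Foxd2 and Foxd2 with Onecut2, so those neighbours cannot be ranked. In colon Hnf4a at 136 ± 9.74 was followed by Cdx1 at 91.5 ± 16.8 and Cdx2 at 87.7 ± 14.9, which overlapped, then by Foxd2 at 13.5 ± 1.77, Hnf4g at 10.5 ± 3.33 and Nr5a2 at 9.38 ± 0.752, which also overlapped in turn. Gata6 at 4.31, Gata4 at 0.293 and Onecut2 at 0.00503 came last.

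Genes known to be regulated by these factors were read from lists chosen with results of these data known. Of 12 listed Hnf4 targets, 11 were called lower in colon in both genotypes and none higher, where 19.6% and 20.0% of all genes were called lower. The 12 had a median log2 difference of -4.73 in controls beside 0.02 over all genes. Some of the 12, such as Apoa4 with 0 to 22 counts in colon, passed the filter through ileal libraries alone. Only a lower call was open to those genes, so the count of 11 is no test of a link to Hnf4. On the epithelial scale 11 were called lower in controls and 10 in knockouts, with medians of -3.99 and -3.30 beside 0.76 and 0.90 over all genes. On that scale 6.98% of all genes were called lower in controls and 5.68% in knockouts. Apoa1, an apolipoprotein of chylomicrons, measured 3896 to 8787 CPM in ileum and 0.466 to 5.64 in colon. Mttp, which loads lipid onto apolipoprotein B, measured 643 to 1119 against 1.58 to 8.92, and Apoa4 65 to 301 against 0 to 0.913. Pck1, an enzyme of gluconeogenesis, was the exception, at 11.9 to 288 CPM in ileum and 74.0 to 127 in colon, and was not called (adjusted p = 0.884 in controls by edgeR).

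Of 8 listed Cdx targets, 7 passed the filter, and in controls 2 were higher and 4 lower in colon, while in knockouts 1 was higher and 4 lower. The shares over all genes were 16.2% higher and 19.6% lower in controls, and 17.1% and 20.0% in knockouts. On the epithelial scale 3 were called higher and 4 lower in both genotypes. The shares over all genes on that scale were 60.1% higher and 6.98% lower in controls, and 68.2% and 5.68% in knockouts. Muc2, the main gel-forming mucin, measured 1262 to 1673 CPM in ileum and 2305 to 4477 in colon (adjusted p = 0.00356 and 0.000406), and Car1 was the other, called in controls alone (adjusted p = 0.0142), with an adjusted p of 0.106 in knockouts, where ileum KO replicate 2 held 2632 CPM. Sis, the sucrase-isomaltase of the brush border, fell by 4.70, Mep1a, a metalloprotease, by 1.40 and Cdh17, an intestinal cadherin, by 1.37 in controls. Heph, a ferroxidase, fell by 1.26, and Gucy2c, the guanylin receptor, had 0.19 (SE 0.23). Fits and adjusted p-values are from edgeR.

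Of 4 genes that Gata4 is known to regulate along the small intestine, 3 passed the filter, and these were lower in colon in both genotypes and on both scales. Of all genes, 19.6% were called lower in controls and 20.0% in knockouts, and 6.98% and 5.68% on the epithelial scale. Fabp6 and Slc10a2 are ileal genes that Gata4 is known to hold down in the proximal small intestine. Both were also among the 4 ileal markers used to check the tissue labels, so their direction was set by that choice. The 3 genes were Fabp6, a bile acid binding protein, at 3362 to 7110 CPM in ileum and 5.76 to 26.8 in colon, Cubn, the vitamin B12 receptor, at 346 to 1151 against 27.2 to 46.3, and Slc10a2, the ileal bile acid transporter, at 1883 to 3282 against 547 to 916. Of 5 listed Nr5a2 targets only the cyclins Ccnd1 and Ccne1 passed. Ccnd1 was lower by both fits (-1.62, adjusted p = 0.0064, and -1.29, adjusted p = 0.0202), and Ccne1 in knockouts (-0.75, adjusted p = 0.0519) but not past the threshold in controls (-0.52, adjusted p = 0.165), by edgeR. On the epithelial scale 1 of the 2 cyclins was called lower in controls and 0 in knockouts, with medians of -0.31 and -0.11.

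**Figure D4:**
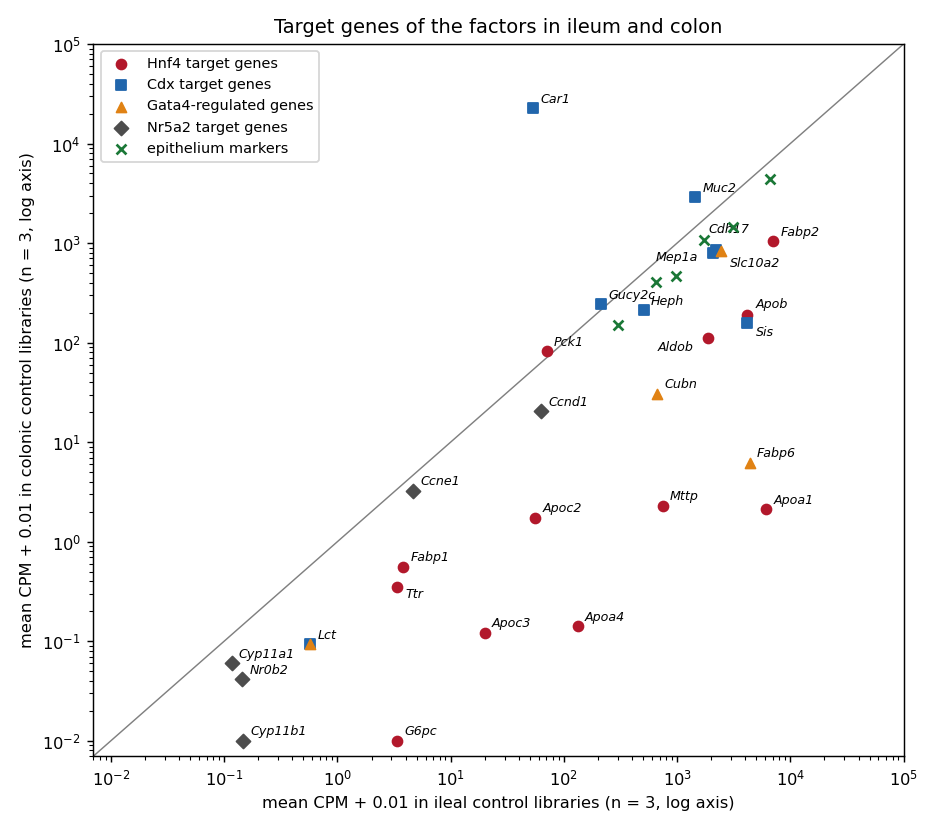
Mean CPM plus 0.01 of target genes of the factors in the 3 ileal (x axis) and 3 colonic (y axis) control libraries, on log axes, with the 6 epithelial markers for comparison and a line of equal level. Of the 12 Hnf4 targets, Pck1 lies near the line and the others lie below it.

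Among 20 other transcription factors of gut epithelium, 19 passed, and 3 were higher and 3 lower in colon in controls, with 6 higher and 3 lower in knockouts. In controls these counts lay near the shares over all genes, 16.2% higher and 19.6% lower, and in knockouts the shares were 17.1% and 20.0%. Foxa1, a forkhead pioneer factor, measured 24.0 to 37.7 CPM in ileum and 61.6 to 65.9 in colon, and Vdr, the vitamin D receptor, 228 to 288 against 386 to 541. Maf measured 309 to 542 CPM in ileum and 19.5 to 41.8 in colon, and Creb3l3, a membrane-bound factor of lipid genes, 115 to 161 against 11.0 to 30.2. Rxra, the partner of many nuclear receptors, fell by 0.48 (adjusted p = 0.0513) in controls by edgeR.

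Loss of Slc39a8 in the epithelium came with no member past the threshold. Of 16558 genes tested, 0.00% were called in ileum, in colon, over both tissues or for the difference between tissues by edgeR, while 252, 385, 641 and 169 had an unadjusted p under 0.05 in that order. DESeq2 called 2, 0, 4 and 1 genes and limma-voom 1, 0, 1 and 0. The members' log2 differences over both tissues ran from -0.14 to 0.67 with adjusted p-values of 0.998 or more by edgeR. Slc39a8 itself was not called by that fit, although its counts did not overlap between genotypes in either tissue. A lack of calls therefore does not show that a level was unchanged.

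Cdx1 came closest. In colon its 3 knockout libraries, at 163 to 195 CPM, lay above the 3 controls, at 130 to 143, and in ileum 103 to 129 overlapped with 55.2 to 118. The log2 difference over both tissues was 0.41 (SE 0.15, adjusted p = 0.998 by edgeR). The exact permutation test with genotype exchanged within tissue gave a difference of 0.44 and p = 0.015, with 0.055 without ileum KO replicate 3. Without ileum control replicate 1, the lowest library, that difference was 0.28 with p = 0.025 by the same permutation test. Without the 2 muscle-poor ileal libraries the fitted difference was 0.52 (SE 0.14, adjusted p = 0.339 by edgeR). Cdx2 also did not overlap in colon, at 203 to 254 CPM in knockouts and 150 to 189 in controls, but its exact permutation p over both tissues was 0.185, with a difference of 0.27. Without ileum control replicate 2 the difference was 0.42 with p = 0.01, and without ileum control replicate 1 it was 0.13 with p = 0.485, both by the exact permutation test. In colon 6.98% of all genes had all 3 knockout libraries above all 3 controls, 5.85% below and 12.8% either. In ileum no member was separated, and 2.13% of all genes were above, 1.57% below and 3.70% either.

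Foxd2 gave an exact permutation p of 0.04 for genotype, and 0.07 without ileum KO replicate 2, within a range of 0.02 to 0.21 with 1 library left out. Its fitted difference in ileum, 2.58 (SE 0.92, adjusted p = 1 by edgeR), was 0.54 (SE 0.55) without that library, and its difference between tissues, -2.33 (SE 1.03), was -0.29. In colon Foxd2 measured 27.2 to 36.7 CPM in controls and 36.4 to 39.1 in knockouts, which overlapped. For the other 6 members tested by permutation, Gata4, Gata6, Hnf4a, Hnf4g, Nr5a2 and Onecut2, the exact p lay between 0.445 and 0.99. The standard error of the difference over both tissues was 0.07 for Gata6, 0.12 for Hnf4a, 0.20 for Hnf4g and 0.58 for Gata4.

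**Figure D5:**
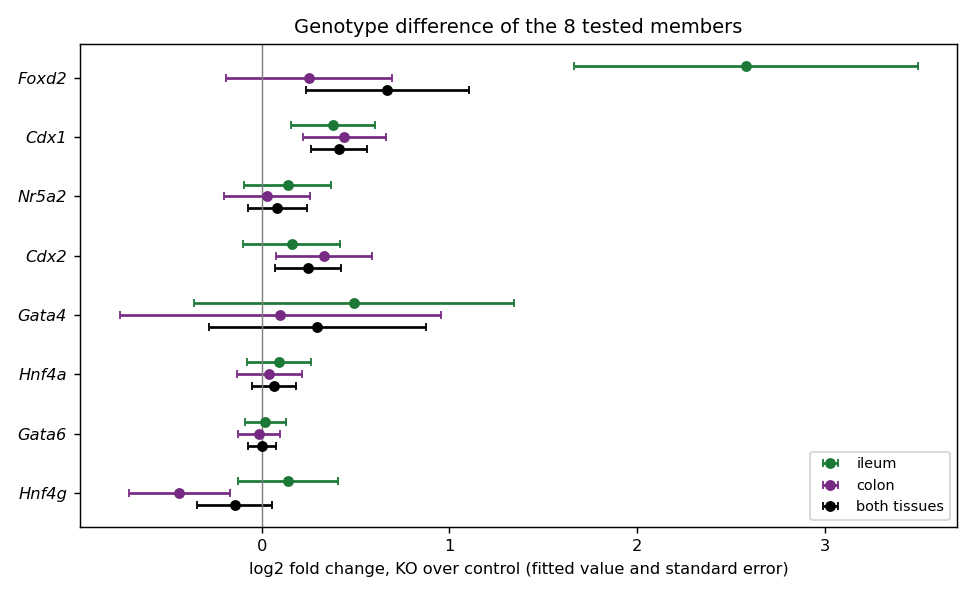
Fitted log2 fold change of knockout over control (x axis) with its standard error for the 8 tested members in ileum, in colon and over both tissues. The ileal value of Foxd2, 2.58, rests on 33 counts in ileum KO replicate 2, and no value passed the adjusted threshold.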

How the data were processed

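RNA was isolated per mouse from ileal or colonic mucosa, reverse transcribed from oligo-dT and sequenced, giving 12 libraries that were grouped by tissue and genotype from the labels. Expected counts, not normalized, came as 1 gene table from the authors. The submitters' processing notes name STAR and mm10, and the study's Reporting Summary names a Gencode annotation, uniquely mapped reads, UMI-tools and FeatureCounts. Tool and strand setting behind the expected counts: not given in the sources used here. This gene table had 53807 lines, of which 92 spike-in lines with 0 counts were left out.

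Counts were rounded to whole numbers and fitted with edgeR 4.0.16 in R 4.3.3 (filterByExpr with 4 groups, TMM, glmQLFit and glmQLFTest, Benjamini-Hochberg over 16558 genes, threshold 0.1 as in the study). DESeq2 1.42.0 and limma-voom (limma 3.58.1) were alternatives, beside other scalings, filters and left-out libraries. CPM uses the TMM-scaled library size. Levels per kilobase divide by merged exon length. Exact two-sided permutation tests used log2 of CPM plus 0.5 or log2 ratios of counts plus 0.5 and scipy 1.17.1. Low-count ratios have exact 95% intervals for counting error only. The fits were tested on simulated data. Replicates are separate mice within a tissue, and the labels do not link mice across tissues. Library totals ran from 16749138 to 27903083. Plots came from matplotlib 3.10.9 (Python 3.11.15).

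The named genes are the 9 members, every tested relative or partner, and the called genes with the 3 largest changes each way in each target list, plus the 3 genes most like each member by Pearson's r. A listed gene that this rule names is not reported here. Members, lists and this rule were chosen with earlier results of these data known.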

Additional observations from a re-analysis of the deposited data

How the results depend on the processing

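All 5 members called between tissues kept their direction and call under DESeq2, limma-voom, other count scalings and filters, except Cdx1, which missed a threshold of 0.05 and a fit of the 6 control libraries alone. Epithelial scaling ended the Hnf4a calls and the Gata6 call in knockouts, and raised the genes called between tissues to 11101 in controls and 12237 in knockouts. Of 1231 alternative values of single members, 76 changed sign, and 1 of these belonged to a called value (Hnf4a in knockouts, 0.10 under epithelial scaling). Nr5a2 became called in controls with upper-quartile factors (0.55, adjusted p = 0.0837 by edgeR) and without ileum control replicate 3 (0.79, adjusted p = 0.00479), and in knockouts from their 6 libraries alone (0.33, adjusted p = 0.0838). Gata4 became called in knockouts without colon KO replicate 3 (-2.29, adjusted p = 0.0729), and Cdx2 in knockouts with library size only (0.60, adjusted p = 0.0948). The cause of these changes was not tested. Replicate numbers did not pair the tissues by correlation of deviations, and with the number as a replicate block 5573 and 5886 genes were called between tissues and 0 between genotypes. With the replicate block, the Hnf4a to Hnf4g ratio kept its difference of 2.35 (exact p = 0.0312, adjusted 0.0938), Gata4 in colon turned to -0.10 for genotype, and the Cdx1 tissue difference of the genotype effect to -0.0055. The alternatives without the muscle-poor libraries, and without those and ileum KO replicate 2, were chosen after seeing the data.

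For genotype, counts of genes called were 0 by edgeR in each comparison. In ileum they were 2 by DESeq2, 1 by limma-voom, 3 without the muscle-poor libraries and 0 to 1 with 1 library left out. In colon 1 was called from its 6 libraries alone. Over both tissues they were 4 by DESeq2, 1 by limma-voom, 5 without the muscle-poor libraries, 6 without those and ileum KO replicate 2, and 0 to 1 with 1 library left out, and for the tissue difference 1 by DESeq2. Members with an exact genotype p under 0.05 numbered 1 to 2 with 1 library left out.

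For tissue, Gata4 in controls was 0.091 with library size only, 0.57 with epithelial scaling and -1.05 to 0.38 with 1 library left out, and 0.37 in knockouts with epithelial scaling. Cdx2 in controls ran from -0.092 to 0.50 with 1 library left out. Epithelial scaling moved the genotype median of all genes to -0.15 in ileum and 0.15 for the tissue difference, and Gata6 was -0.13 in ileum and -0.074 over both tissues, Hnf4g -0.016 and Hnf4a -0.061 in ileum, Hnf4a -0.0074 over both tissues, and the tissue difference was 0.11 for Gata6, 0.11 for Hnf4a and 0.023 for Nr5a2. With upper-quartile factors Gata6 was -0.012 in ileum and -0.013 over both tissues. With library size only it was 0.085 in colon and 0.0045 for the tissue difference, with no filter 0.015 in colon, and with 1 CPM in 3 libraries -0.0035 over both tissues. By limma-voom Gata4 in colon was -0.25 and the tissue difference of Cdx1 -0.0057. Without the muscle-poor libraries, Gata6 was -0.093 in ileum, 0.0017 in colon, -0.037 over both tissues and 0.095 for the tissue difference, which was 0.0011 for Hnf4a and -0.15 for Cdx1. Without those and ileum KO replicate 2, Gata6 was -0.0061 in ileum and -0.021 over both tissues, Hnf4g -0.058 in ileum, and the tissue difference -0.35 for Cdx1, -0.11 for Cdx2 and 0.012 for Foxd2.

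With 1 library left out, genotype in ileum ran from -0.051 to 0.088 for Gata6, -0.021 to 0.40 for Hnf4g, -0.029 to 0.25 for Hnf4a, -0.072 to 0.52 for Nr5a2 and -0.076 to 0.51 for Cdx2. In colon it ran from -0.075 to 0.041 for Gata6, -0.0047 to 0.13 for Hnf4a, -1.64 to 0.98 for Gata4 and -0.053 to 0.099 for Nr5a2. Over both tissues it ran from -0.031 to 0.032 for Gata6, -0.25 to 0.017 for Hnf4g, -0.33 to 0.69 for Gata4 and -0.016 to 0.25 for Nr5a2. The tissue difference ran from -0.10 to 0.037 for Gata6, -0.21 to 0.080 for Hnf4a, -2.12 to 0.50 for Gata4, -0.18 to 0.31 for Cdx1, -0.47 to 0.10 for Nr5a2 and -0.18 to 0.41 for Cdx2. The ratios ran from 0.28 to 0.51 for Cdx1 to Cdx2 and -0.37 to 0.59 for Gata4 to Gata6. Onecut2, Gata4 and ileal Foxd2 are limited by counts.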

Other observations

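Some genes followed a member closely over the 12 libraries, among 10562 genes with a mean of at least 5 CPM. Pearson's r of log2 CPM is given as a description. The libraries differ in tissue and depth, so r includes the difference between tissues. For Foxd2 the nearest were St6galnac6, Ildr1 and Ethe1 (0.99 each). For Hnf4g they were Stard4, Sec23a and Nckap1 (0.99 each), and for Gata6 Slc41a2 (0.996), Tspan5 (0.995) and Taf12 (0.995). Hnf4a was followed by Tmem170, Ptdss1 and Il17rc (0.99 each), Cdx1 by Rab3d (0.97), Fem1a (0.96) and Cant1 (0.96), and Cdx2 by Mrps23 (0.94), Usf1 (0.93) and Ndufs7 (0.92). Nr5a2 was followed by Galnt5 (0.96), Prps1l3 (0.95) and Crebzf (0.94). For Gata4, which has few counts, they were Trex1 (0.91), Parp14 (0.90) and Stat2 (0.88), a DNA exonuclease and a pair of genes of the interferon response.

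Within groups, deviations of Hnf4a and Nr5a2 from their group means ran opposite (r = -0.87 over 12 libraries), and those of Cdx1 and Cdx2 ran together (r = 0.64), as descriptions without a test. Cdx2 and Hnf4g had r = -0.68 and Gata4 and Hnf4a 0.61, and the remaining pairs lay between -0.57 and 0.49. The muscle-poor ileum control replicate 3 and ileum KO replicate 1 held the lowest Hnf4a and the highest Nr5a2 of their groups.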
